A study of Mus musculus with 16 samples.

Results

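Expression of 10 genes of the TGF-β system was examined in mouse epidermis: the ligand genes Tgfb1, Tgfb2 and Tgfb3, the storage genes Ltbp1 and Lrrc32, the integrin genes Itgav, Itgb6 and Itgb8, and the receptor genes Tgfbr1 and Tgfbr2. The members were picked by name, and each matched 1 of the 50600 gene identifiers in the count table. All 10 passed the filter of 10 counts over all libraries, as did 22155 genes in all. Female C57/B6J mice were placed at 5 wk of age on a purified diet poor in ligands of the aryl hydrocarbon receptor ('AhR-poor diet', labelled SYNTH) or on the same diet supplemented with 200 ppm of indole-3-carbinol, a plant compound that gives rise to AhR ligands ('I3C diet'). After 3 wk each mouse received a footpad injection of 50 μl, either PBS alone (vehicle) or PBS carrying 50 μg of papain, a plant protease used as a model allergen. Epidermal cells were isolated 6 hr later, separated from the dermis with dispase and depleted of dead cells. RNA-seq gave 16 libraries, 4 for each combination of diet and injection, named here by their codes T100 to T115. The labels name no mutation or transgene in any group. Per the study's methods, each animal is one experimental unit and cages were not mixed between diets and no randomization was done, so in every diet difference below, diet and cage cannot be told apart.

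TGF-β is secreted in a latent form, in which the mature cytokine stays wrapped by its own propeptide, and this complex is tethered to the matrix by latent TGF-β-binding proteins or to a cell surface by the protein encoded by Lrrc32 (GARP). Integrins that pair the αv chain with the β6 or β8 chain bind the propeptide and free the cytokine, which then signals through a pair of kinase receptors to SMAD proteins. In the epidermis, TGF-β restrains keratinocyte growth and holds Langerhans cells in place.

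The αv integrins bind an arginine-glycine-aspartate motif in the propeptide. To show which ligands carry it, the coding sequence around this motif was read from the GENCODE vM21 annotation of the ligand genes (build GRCm38). Capitals mark the codons of the motif in Tgfb1 (codons 244 to 246) and Tgfb3 (codons 261 to 263). In Tgfb2 no such motif was found in the coding sequence, and capitals mark the codons that align with those of Tgfb1.
Tgfb1 (plus strand, exons 4 and 5, chr7:25696989-25697174 with an intron inside): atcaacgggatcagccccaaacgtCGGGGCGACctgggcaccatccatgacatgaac
Tgfb3 (minus strand, exon 5, chr12:86062141-86062197): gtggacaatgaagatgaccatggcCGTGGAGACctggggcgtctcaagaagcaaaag
Tgfb2 (minus strand, exon 5, chr1:186630729-186630785): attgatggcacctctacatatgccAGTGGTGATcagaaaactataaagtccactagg
Each stretch is 57 bases, written 5′ to 3′ along the transcript.

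Because the diets differ in AhR ligands, promoters were searched for the core of the AhR response element, GCGTG on one strand or CACGC on the other. RefSeq promoters (GRCm38.p6, 250 bases before to 50 after the transcription start) were found for 8 of the 10 members, 11 promoters in all. None was found for Tgfb3 or Lrrc32, so these were not searched. The core was present in 3 of the 11, compared with 32.4% of 32851 mouse promoters of 300 bases. Tgfb1 had 1 match, starting 118 bases before the start site. Tgfbr1 had 2 matches in its first promoter, 214 and 186 bases before the start, and Tgfbr2 had 1, 138 bases before it. No promoter of a member held TGANTCA, the AP-1 site, which 7.81% of mouse promoters held. The promoters of Tgfb1, which differed between diets after papain, and of Itgb8, which was also higher on the AhR-poor diet after papain, are shown with the AhR core in capitals.
Tgfb1 (plus strand, chr7:25686752-25687051): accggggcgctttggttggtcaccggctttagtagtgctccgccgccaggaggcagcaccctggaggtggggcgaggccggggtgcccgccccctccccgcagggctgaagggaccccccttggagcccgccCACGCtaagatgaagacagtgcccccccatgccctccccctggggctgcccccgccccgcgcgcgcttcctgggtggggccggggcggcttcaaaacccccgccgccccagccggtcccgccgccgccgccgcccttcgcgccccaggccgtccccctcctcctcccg
Itgb8 (minus strand, chr12:119238227-119238526): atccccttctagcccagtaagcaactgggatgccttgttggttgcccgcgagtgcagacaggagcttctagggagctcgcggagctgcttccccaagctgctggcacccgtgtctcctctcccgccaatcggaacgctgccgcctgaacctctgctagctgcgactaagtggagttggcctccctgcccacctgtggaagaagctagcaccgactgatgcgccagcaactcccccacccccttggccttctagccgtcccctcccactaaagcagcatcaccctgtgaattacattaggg
The Itgb8 promoter has no capitals because these letters did not occur in it. This window lies within the GENCODE span of the gene, which ends at 119238802, and the bases before that start were not searched.

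Libraries held 22500821 to 51844375 counts, and the lowest count of any member in any library was 38 (Tgfb3 in T113). Levels are given as CPM, the counts relative to library size after scaling with TMM factors, which ran from 0.94 to 1.07. Keratinocyte markers were high in every library, where 7 basal markers summed to between 21070 and 37273 CPM. The summed fibroblast, endothelial, Langerhans cell, monocyte and macrophage, neutrophil and red blood cell markers differed between diets without overlap at either injection. With vehicle, edgeR called 0 of 7 neutrophil markers tested between diets (adjusted p below 0.05). On the I3C diet with vehicle 6 of these were at 3 counts or fewer. The sums of pericyte and platelet markers overlapped. After papain, edgeR nevertheless called 2 of 5 pericyte and smooth muscle markers higher on the AhR-poor diet and 1 lower (adjusted p below 0.05). Of 4 platelet markers tested it called 2 higher and 0 lower after papain, and 1 higher with vehicle. The summed level of 10 dermal fibroblast markers was 72.6 to 99.4 CPM with vehicle on the I3C diet and 161 to 246 CPM on the AhR-poor diet. After papain it was 15.3 to 33.0 CPM on the I3C diet and 291 to 691 CPM on the AhR-poor diet. Such sums give most weight to abundant markers. Gene by gene, the median log2 difference of AhR-poor over I3C diet was 4.08 with vehicle and 6.47 after papain. With papain on the I3C diet the median log2 change was -0.24, and 4 of 10 were above 0. There edgeR called 2 of the 10 lower and 0 higher at an adjusted p below 0.05. The summed level of the neutrophil markers was higher with papain. It went from 0.517 to 0.952 CPM in the vehicle libraries to 20.1 to 29.5 CPM on the I3C diet. On the AhR-poor diet it went from 1.80 to 2.49 CPM to 37.7 to 177 CPM. Of 7 neutrophil markers tested, edgeR called 1 higher with papain on the I3C diet at an adjusted p below 0.05. On that diet 4 of the 7 changes were above 0. On the AhR-poor diet 6 of the 7 were called higher. In bulk RNA, fewer cells of a type and less RNA per cell cannot be told apart.

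**Figure D1:**
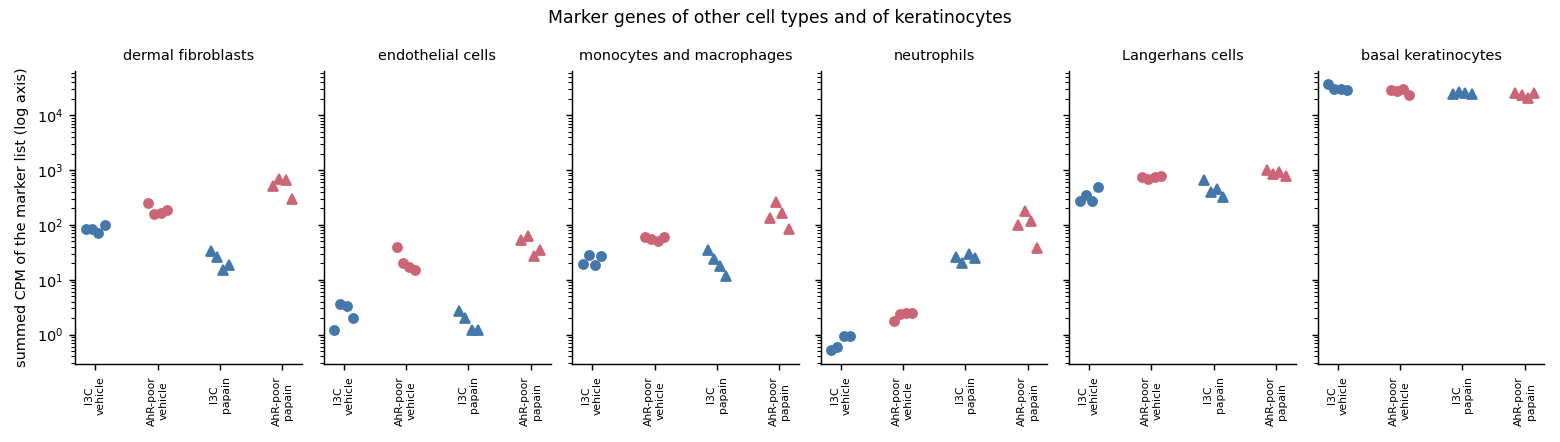
Summed CPM of 6 marker lists (log axis) in each of the 16 libraries; blue points are I3C diet, red points AhR-poor diet, circles vehicle and triangles papain. Fibroblast, endothelial and monocyte/macrophage markers were higher in every AhR-poor library than in every I3C library with the same injection, and the basal keratinocyte markers stayed between 21070 and 37273 CPM.

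The number of members that changed was counted with edgeR at an adjusted p below 0.01 with a log2 fold change above 1 or below -1, and at an adjusted p below 0.05 without a fold minimum. Between diets with vehicle, 0 of 10 members were called by either rule. Of all genes, 1.59% were called by the stricter rule, and by the looser one the AhR-poor diet had 2.98% of genes higher and 0.0993% lower. At an unadjusted p below 0.05 only Itgb8 passed, and DESeq2 called it at an adjusted p of 0.0125. Between diets after papain, 1 member passed the stricter rule (Tgfb3), against 7.24% of all genes. The looser rule found 3 members higher (Itgb8, Tgfb1, Tgfb3) and 2 lower (Itgav, Tgfbr1) on the AhR-poor side, against 12.3% and 8.36% of all genes.

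With papain on the AhR-poor diet 1 member passed the stricter rule (Ltbp1), against 8.46% of all genes, and by the looser rule 5 rose and 1 fell, against 17.7% and 15.7%. On the I3C diet 3 passed the stricter rule (Ltbp1, Itgb6 and Tgfb3), against 8.98% of all genes, and by the looser rule 5 rose and 2 fell, against 16.9% and 18.4%. Itgav, Itgb6, Ltbp1, Tgfbr1 and Tgfbr2 rose by the looser rule on both diets, and Tgfb3 fell on both. The 2 papain comparisons have no libraries in common, whereas each diet comparison shares libraries with both of them. In the test of whether the papain response differed between diets, 0 members passed the stricter rule, against 0.0181% of all genes. By the looser rule 1 was higher (Tgfb1) and 0 lower, against 0.311% and 0.0181%. Over all genes the median change was between -0.04 and 0.03 (log2) in the 5 comparisons. Over the members it was -0.03 for diet with vehicle, -0.22 for diet after papain, 0.34 for papain with the AhR-poor diet, 0.60 for papain with the I3C diet and -0.15 for the difference between the papain responses.

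**Figure D2:**
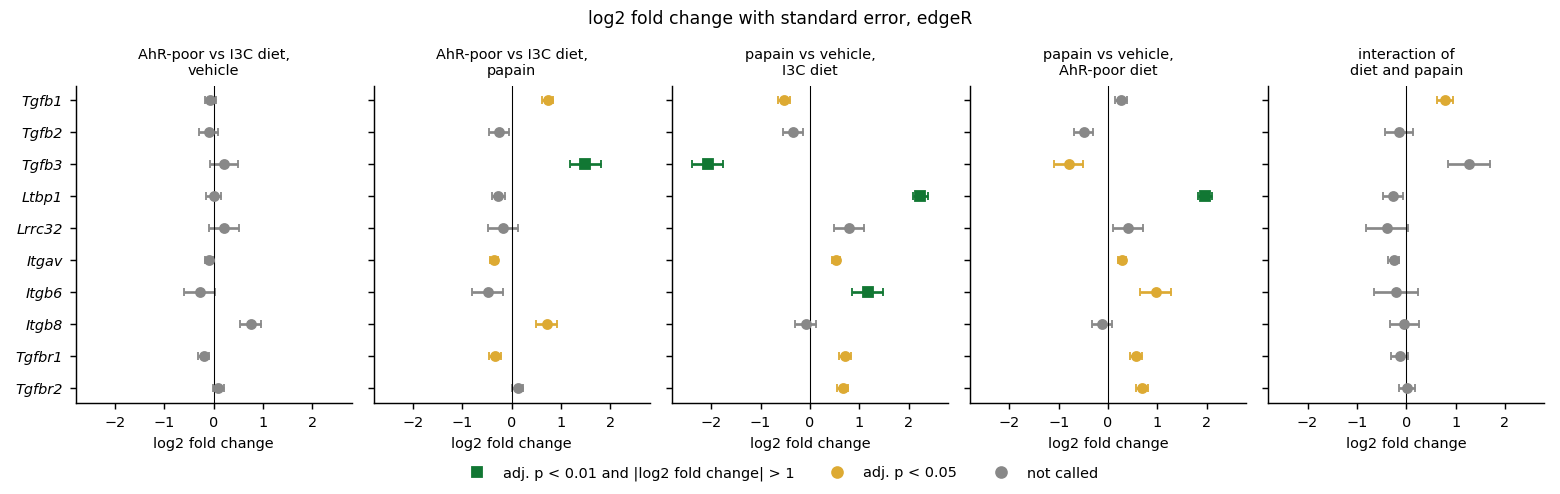
log2 fold change of each member in the 5 comparisons, with bars of 1 standard error; green squares passed the stricter rule, yellow circles the looser rule, and grey circles neither. Ltbp1 lay near 2 on both diets after papain, whereas Tgfb3 lay at -2.07 on the I3C diet and -0.80 on the AhR-poor diet.

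Levels between genes were compared as CPM per kb of merged exon sequence. With vehicle on the I3C diet the order was Tgfb1 (8.42 ± 1.30 CPM per kb, SD, n = 4), Tgfbr2 (6.62 ± 1.35), Itgav (5.56 ± 0.42) and Tgfbr1 (5.02 ± 1.12), and neighbours in this upper group overlapped. A gap then separated Tgfbr1 from Lrrc32 (1.89 ± 0.52), Tgfb3 (1.85 ± 0.60), Itgb6 (1.24 ± 0.59), Ltbp1 (1.18 ± 0.24) and Tgfb2 (1.16 ± 0.28), which overlapped from one to the next. Itgb8 was lowest (0.53 ± 0.14), and its 4 libraries lay below all those of Tgfb2. After papain on the I3C diet Tgfbr2 was highest (10.5 ± 0.6 CPM per kb) and Tgfb3 lowest (0.43 ± 0.17), and Ltbp1 (5.57 ± 0.91) stood just below Tgfb1, with overlap. With coding length in place of exon length, Ltbp1 and not Itgb8 was lowest with vehicle, and Tgfb1 remained highest on the I3C diet, so the order among the low genes depended on the length used.

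**Figure D3:**
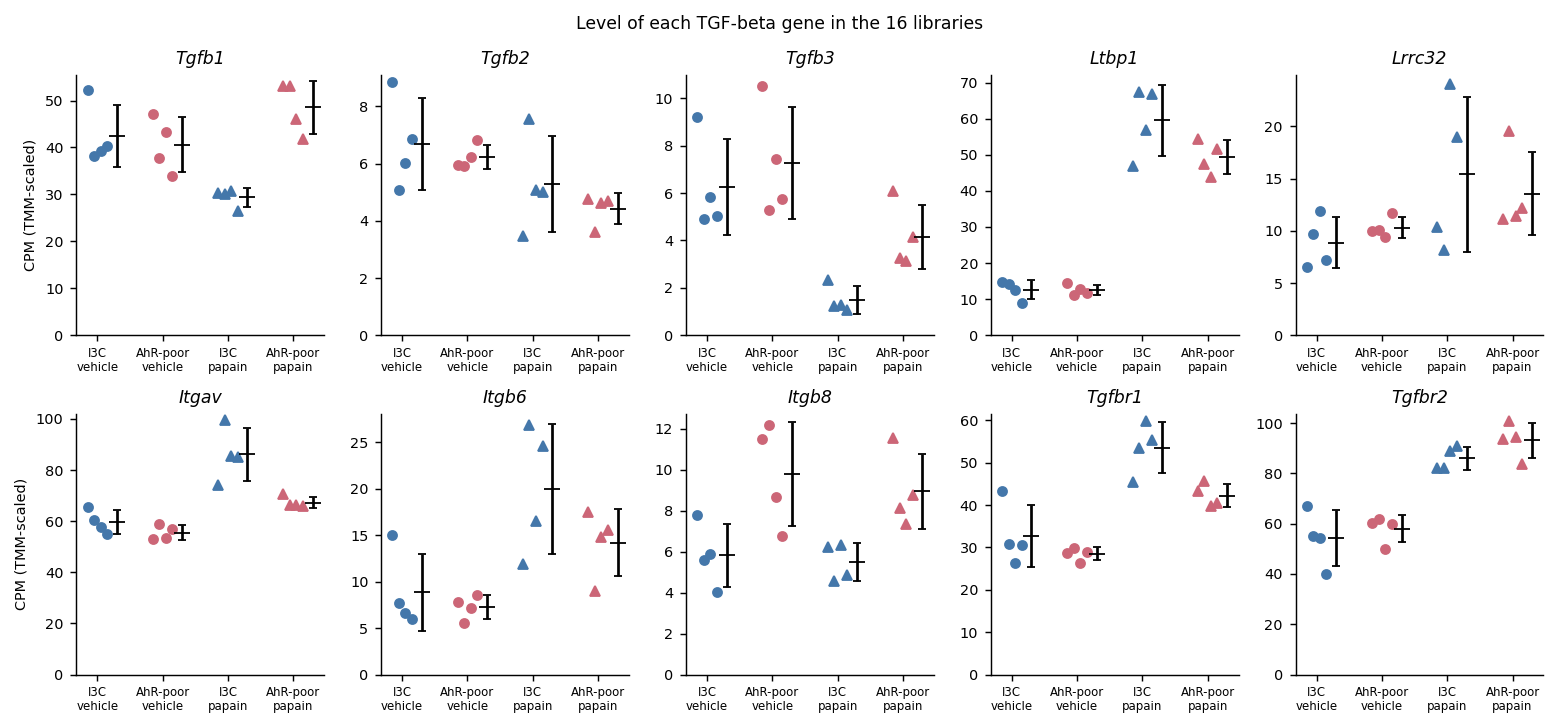
CPM of each member in each library (points, linear axes from 0) with the group mean and SD (black bar); blue is I3C diet, red AhR-poor diet, circles vehicle and triangles papain. The papain libraries of Ltbp1 lay between 43.8 and 67.5 CPM and the vehicle libraries between 9.0 and 14.8 CPM.

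Tgfb1, which encodes the most abundant ligand of the family here (chr7:25687002-25705077), fell after papain on the I3C diet and was not called on the AhR-poor diet. With vehicle it was at 52.2, 38.1, 39.3 and 40.3 CPM in T108, T109, T110 and T111 on the I3C diet, and at 47.2, 37.9, 43.2 and 34.0 CPM in T100, T101, T102 and T103 on the AhR-poor diet. After papain it was at 30.3, 30.2, 30.7 and 26.4 CPM in T106, T113, T114 and T115 on the I3C diet, and at 53.1, 53.2, 46.1 and 41.8 CPM in T104, T105, T107 and T112 on the AhR-poor diet. All 4 I3C papain libraries were thus below the other 12. The log2 fold change with papain was -0.53 (SE 0.11, adjusted p = 0.00117) on the I3C diet and 0.26 (SE 0.11, adjusted p = 0.0891) on the AhR-poor diet. The difference between these responses was 0.79 (SE 0.16, adjusted p = 0.0409), and the diets differed by 0.72 after papain (SE 0.12, adjusted p = 0.000165; exact permutation test, p = 0.0286, the smallest that 4 against 4 allows). The difference between the responses was near the threshold: it lost the looser call when any 1 of 11 libraries was left out, with log2 values from 0.68 to 0.88 and adjusted p up to 0.115.

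Tgfb3 (chr12:86056745-86079041) fell after papain on both diets, and the fall was larger on the I3C diet. With the I3C diet it was at 9.22, 4.90, 5.85 and 5.01 CPM with vehicle (T108 to T111) and at 2.34, 1.22, 1.28 and 1.04 CPM after papain (T106, T113, T114, T115). With the AhR-poor diet it was at 10.5, 5.30, 7.44 and 5.77 CPM with vehicle (T100 to T103) and at 6.08, 3.26, 3.12 and 4.13 CPM after papain (T104, T105, T107, T112). The I3C papain libraries were the lowest 4 of the 16, while on the AhR-poor diet the papain and vehicle ranges overlapped through T104. The log2 fold change with papain was -2.07 (SE 0.31, adjusted p = 4.12e-05) on the I3C diet and -0.80 (SE 0.29, adjusted p = 0.0404) on the AhR-poor diet, where leaving out any 1 of 5 libraries ended the call (T100, T102, T105, T107 or T112; adjusted p up to 0.149), as did testing every gene with at least 1 count (adjusted p = 0.0531). The difference between the responses was 1.27 (SE 0.42) with an unadjusted p of 0.00728 and an adjusted p of 0.211 (edgeR), so it did not pass. After papain the level was 2.81-fold higher on the AhR-poor diet (log2 1.49, SE 0.31, adjusted p = 0.00226; without T115, adjusted p = 0.0107). Of its exonic bases 420 also belong to antisense genes, and whether counting used strand is not given in the sources used here.

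After papain Tgfb1 and Tgfb3 were higher on the AhR-poor diet, and so were markers of other cells. With vehicle the fibroblast markers also differed between diets (median log2 4.08), whereas Tgfb1 (-0.07) and Tgfb3 (0.22) were not called. With papain on the AhR-poor diet the median log2 change of the fibroblast markers was 1.89 and that of Tgfb3 was -0.80. Fibroblast markers were called higher on the AhR-poor diet for 9 of 10 genes after papain by the stricter rule, monocyte and macrophage markers for 8 of 8, endothelial markers for 9 of 9 and neutrophil markers for 4 of 7 tested. Of the neutrophil markers, Ly6g, Camp and Ngp were at 3 counts or fewer on the I3C diet after papain. The part of these cells in the diet differences was not tested. A fit with the mean fibroblast marker level as a covariate called 0 of 22155 genes in the diet comparisons and in the difference between papain responses, and so could not separate diet from these markers. In the papain comparisons that fit still called genes. On the I3C diet it gave -0.50 for Tgfb1 (SE 0.12, adjusted p = 0.00368) and -2.01 for Tgfb3 (SE 0.32, adjusted p = 0.000126), and on the AhR-poor diet it gave -1.11 for Tgfb3 (SE 0.45, adjusted p = 0.113), where the call was lost.

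Tgfb2 (chr1:186622792-186705989), the ligand gene without the integrin-binding motif, was between 3.48 and 8.84 CPM and was not called in any comparison. Of its exonic bases 124 also belong to an antisense gene. Its log2 fold change with papain was -0.50 (SE 0.20, adjusted p = 0.0631) on the AhR-poor diet, where the ranges did not overlap, and -0.34 (SE 0.20, adjusted p = 0.198) on the I3C diet. The diets differed by -0.26 after papain, with an interval of 2 SE from -0.66 to 0.15.

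Per length, Tgfb1 made up most of the ligand transcripts in every library, as the stacked plot of ligands shows. Its share of the 3 ligands was 74.0% ± 2.4 (SD, n = 4) with vehicle and 81.3% ± 2.1 after papain on the I3C diet, and 71.5% ± 2.3 and 82.9% ± 3.3 on the AhR-poor diet. The share of Tgfb3 went from 15.9% ± 2.1 to 6.0% ± 2.3 and from 18.7% ± 3.2 to 10.5% ± 2.7. For both shares and on both diets the vehicle and papain libraries did not overlap (exact permutation test, two-sided, p = 0.0286; 0.0816 after adjustment over 20 such tests). The 3 ligands summed to 11.4 ± 2.1 CPM per kb with vehicle and 7.18 ± 0.53 after papain on the I3C diet, and to 11.3 ± 1.8 and 11.6 ± 1.3 on the AhR-poor diet. The lower sum in the I3C papain libraries did not overlap with either its vehicle or its diet counterpart (exact permutation test, p = 0.0286, adjusted 0.0816, in each case).

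**Figure D4:**
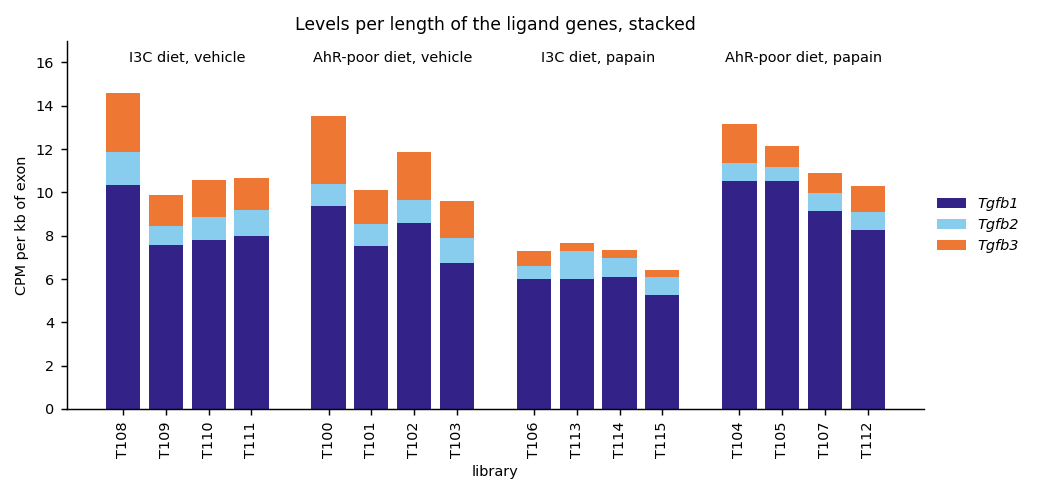
Levels of Tgfb1, Tgfb2 and Tgfb3 stacked for each of the 16 libraries, in CPM per kb of exon. The 4 I3C papain libraries reached 6.4 to 7.7 CPM per kb in all, and the other 12 libraries 9.6 to 14.6.

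Ltbp1 (chr17:75005568-75392512), whose product binds the latent complex and fixes it to the matrix, had the strongest response of the members to papain. With the I3C diet it was at 14.8, 14.1, 12.4 and 9.01 CPM with vehicle (T108 to T111) and at 46.9, 67.5, 56.7 and 66.9 CPM after papain (T106, T113, T114, T115). With the AhR-poor diet it was at 14.6, 11.3, 12.7 and 11.8 CPM with vehicle (T100 to T103) and at 54.4, 47.4, 43.8 and 51.7 CPM after papain (T104, T105, T107, T112). Papain and vehicle libraries were far apart on either diet. The increase was 4.72-fold on the I3C diet (log2 2.24, SE 0.15, adjusted p = 4.17e-09) and 3.92-fold on the AhR-poor diet (log2 1.97, SE 0.14, adjusted p = 3.29e-08; exact permutation test, p = 0.0286 on each). No difference between the responses was detected (-0.27, 2 SE from -0.66 to 0.13, adjusted p = 0.59 by edgeR). The diets also did not differ detectably with vehicle (log2 0.00, 2 SE from -0.29 to 0.29). With the fibroblast level in the model the increases were 2.21 and 2.08 on the log2 scale, and they passed the stricter rule under every alternative and without each library in turn.

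Lrrc32 (chr7:98489283-98502181), which encodes a cell-surface anchor for latent TGF-β best known from regulatory T cells and platelets, varied widely between mice after papain. It ranged from 6.58 to 11.9 CPM in the 8 vehicle libraries and from 8.21 to 24.1 CPM after papain. On the I3C diet the papain libraries were at 10.3, 8.21, 24.1 and 19.0 CPM (T106, T113, T114, T115), so that 2 stood within the vehicle range and 2 above it. The log2 fold change with papain was 0.80 (SE 0.30, adjusted p = 0.0523) on the I3C diet and 0.41 (SE 0.30, adjusted p = 0.337) on the AhR-poor diet. The first passed the looser rule with DESeq2 (adjusted p = 0.0116), with RLE factors (0.0467), with edgeR's own count filter (0.0324) and with at least 10 counts per library (0.0302), and missed it with the other alternatives (up to 0.217). The 7 T cell markers summed to 28.2, 12.2, 10.7 and 9.42 CPM in these libraries (T106, T113, T114, T115), and their part in the Lrrc32 levels was not tested.

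Itgb8 (chr12:119158022-119238802), which encodes the β8 chain of the integrin αvβ8, was higher on the AhR-poor diet after papain by the looser rule, had a difference of like size that was not called with vehicle, and showed no detectable response to papain. With vehicle it was at 7.78, 5.61, 5.88 and 4.02 CPM on the I3C diet (T108 to T111) and at 11.5, 12.2, 8.68 and 6.76 CPM on the AhR-poor diet (T100 to T103). After papain it was at 6.21, 4.55, 6.34 and 4.87 CPM on the I3C diet (T106, T113, T114, T115) and at 11.6, 8.12, 7.36 and 8.78 CPM on the AhR-poor diet (T104, T105, T107, T112). With vehicle the diets overlapped through T108 and T103, and after papain they did not overlap. The fold was 1.68 with vehicle (log2 0.75, SE 0.21, adjusted p = 0.0616) and 1.63 after papain (log2 0.71, SE 0.21, adjusted p = 0.0219). Exact permutation tests gave p = 0.0571 and p = 0.0286. The first missed the looser rule with edgeR and passed it with DESeq2 (adjusted p = 0.0125), with library size alone (0.0421) and without T108, T103 or T104. The second was lost without T113, T115 or T104 (adjusted p up to 0.0897).

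Since the 2 diet differences of Itgb8 were alike in size, the diet difference averaged over vehicle and papain was taken in the same edgeR model, a comparison added after the values had been seen. By the looser rule it called 3 members higher on the AhR-poor diet and 2 lower, where all genes had 11.9% higher and 6.37% lower. The log2 difference of Itgb8 was 0.73 (SE 0.15, adjusted p = 0.00173), and DESeq2 gave 0.73 (adjusted p = 2.14e-05). With each library left out in turn it ran from 0.64 to 0.81, with an adjusted p of at most 0.00454. The other members called were Tgfb3 (0.85, SE 0.21, adjusted p = 0.00828), Tgfb1 (0.33, SE 0.08, adjusted p = 0.00754), Itgav (-0.23, SE 0.06, adjusted p = 0.00806) and Tgfbr1 (-0.27, SE 0.08, adjusted p = 0.0287). That of Tgfbr1 was lost without T114 or T102 (adjusted p up to 0.0552). The averaged call is thus not particular to Itgb8. Langerhans cell markers, 6 genes, also differed between diets, summing to 267 to 487 CPM and 702 to 791 CPM with vehicle and to 325 to 669 CPM and 792 to 983 CPM after papain, I3C diet first. Their part in the Itgb8 difference was not tested. The log2 fold change of Itgb8 with papain was -0.08 on the I3C diet (SE 0.21, adjusted p = 0.808) and -0.13 on the AhR-poor diet (SE 0.21, adjusted p = 0.695).

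The 5 genes most like Itgb8 by the Pearson correlation of log2 CPM over the 16 libraries, among 13026 genes with a mean of at least 1 CPM, were Tns3 (r = 0.91), Sema6a (0.90), Ednra (0.89), Clca3a2 (0.88) and Aadacl3 (0.87). Their Spearman coefficients were between 0.85 and 0.91. After the group means were removed the Pearson values were 0.77 to 0.90. The genes were picked on the same 16 libraries, so these values are no separate test of likeness among mice of a group. The libraries share diet, injection and composition, and these values are descriptions.

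Itgav (chr2:83724397-83806916) encodes the αv chain that pairs with β6 and β8. It rose after papain on both diets and more on the I3C diet, where it went from 65.6, 60.6, 57.8 and 54.9 CPM (T108 to T111) to 74.2, 99.7, 85.5 and 85.3 CPM (T106, T113, T114, T115). On the AhR-poor diet it went from 53.1, 59.0, 53.3 and 56.9 CPM (T100 to T103) to 70.6, 66.3, 66.2 and 66.0 CPM (T104, T105, T107, T112). The groups did not overlap in either case. The log2 fold changes were 0.53 (SE 0.08, adjusted p = 3.97e-05) and 0.28 (SE 0.08, adjusted p = 0.0128; 0.109 with the fibroblast covariate), and their difference of -0.25 was not called (SE 0.11, adjusted p = 0.348). After papain the level was lower on the AhR-poor diet (log2 -0.36, SE 0.08, adjusted p = 0.00389), again without overlap. Of its 10744 exonic bases, 634 also belong to an antisense gene.

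Itgb6 (chr2:60598292-60722643), encoding the epithelial β6 chain, also rose after papain. On the I3C diet it went from 14.99, 7.72, 6.67 and 5.94 CPM to 11.9, 26.9, 16.5 and 24.5 CPM, and on the AhR-poor diet from 7.85, 5.51, 7.17 and 8.56 CPM to 17.4, 9.01, 14.8 and 15.5 CPM, libraries in the order given for Itgav. The vehicle library T108 stood within the I3C papain range, whereas the AhR-poor groups did not overlap. The log2 fold changes were 1.17 (SE 0.31, adjusted p = 0.00848) and 0.96 (SE 0.32, adjusted p = 0.0291). The stricter call on the I3C diet was lost when any 1 of 11 libraries was left out (adjusted p up to 0.0289), with every gene of at least 1 count (0.0167), with only the 8 libraries compared (0.0222) and with the fibroblast covariate (0.021), and the looser one was kept in each of these. On the AhR-poor diet the looser call was lost without T101, T102, T104, T107 or T112 (adjusted p up to 0.0843), with every gene of at least 1 count (0.0536) and with the fibroblast covariate (0.102).

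The ratio of Itgb6 to Itgb8, in CPM per kb, joined these patterns. It was 2.30 ± 0.52 (SD, n = 4) with vehicle and 6.01 ± 2.97 after papain on the I3C diet, and 1.25 ± 0.53 and 2.49 ± 0.60 on the AhR-poor diet. The I3C papain libraries ranged from 2.97 to 9.18 and the AhR-poor papain libraries from 1.73 to 3.13, with T106 and T107 overlapping. Each of the 4 comparisons gave p = 0.0571 by the exact permutation test (0.0952 after adjustment over 20 tests), so none passed.

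The receptor genes rose after papain on both diets. Tgfbr1 (chr4:47353222-47414931), encoding the type I receptor kinase, went from 43.3, 30.9, 26.3 and 30.6 CPM (T108 to T111) to 45.5, 53.5, 59.8 and 55.4 CPM (T106, T113, T114, T115) on the I3C diet. On the AhR-poor diet it went from 28.8, 30.0, 26.3 and 28.8 CPM (T100 to T103) to 43.2, 45.6, 39.7 and 40.4 CPM (T104, T105, T107, T112). Within each diet the papain libraries were above the vehicle libraries, T108 coming closest. The log2 fold changes were 0.71 (SE 0.12, adjusted p = 9.76e-05) and 0.57 (SE 0.12, adjusted p = 0.000943). After papain the gene was lower on the AhR-poor diet by the looser rule (log2 -0.34, SE 0.12, adjusted p = 0.0465), and this call was lost without any 1 of 7 libraries (adjusted p up to 0.138), with library size only (0.156) and with at least 10 counts in every library (0.0959).

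Tgfbr2 (chr9:116084293-116175360), encoding the type II receptor that binds the ligand first, went from 67.2, 55.1, 54.5 and 40.1 CPM to 82.0, 82.2, 88.9 and 90.9 CPM on the I3C diet, and from 60.1, 61.7, 50.1 and 60.0 CPM to 93.7, 100.6, 94.6 and 83.9 CPM on the AhR-poor diet. The groups did not overlap on either diet. The log2 fold changes were 0.67 (SE 0.11, adjusted p = 0.000118) and 0.69 (SE 0.11, adjusted p = 0.00011). The diets did not differ detectably with vehicle (0.10, 2 SE from -0.13 to 0.32) or after papain (0.12, 2 SE from -0.11 to 0.34).

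The members were set against 5 lists of other genes of the pathway, described by counts beside the shares of all genes given above. The lists overlap and together held 55 different genes that are not members. Among 16 other genes of latency and activation, 5 rose by the stricter rule with papain on the AhR-poor diet and 0 fell (median log2 change 0.62), where 6.04% of all genes rose and 2.42% fell. With the I3C diet 1 rose and 2 fell (median -0.39), against 3.69% and 5.29%. After papain 5 of the 16 were higher on the AhR-poor diet than on the I3C diet (median 0.80), against 7.15% of all genes, led by Fbn1 (log2 6.87, SE 0.64, adjusted p = 7.37e-06), Itgb3 (3.29, SE 0.34, adjusted p = 2.17e-06) and Emilin1 (2.88, SE 0.33, adjusted p = 7.44e-06). With vehicle 1 was called, Fbn1 (4.59, SE 0.62, adjusted p = 0.000814). Fbn1 encodes fibrillin-1, a matrix protein made by fibroblasts, and was at 0.34 CPM in the I3C papain group and 39.4 CPM in the AhR-poor papain group, and the fibroblast markers moved the same way. Emilin1 was at 0.28 CPM in the I3C papain group, so the sizes of both diet differences rest on few counts on that side.

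Ltbp4, Mmp2 and Mmp9 of that list changed with papain on both diets. Ltbp4, a relative of Ltbp1, fell on the I3C diet from 274 ± 38 to 110.8 ± 3.9 CPM (SD, n = 4; log2 -1.30, SE 0.10, adjusted p = 9.2e-09), and on the AhR-poor diet from 274 ± 20 to 197 ± 20 CPM (log2 -0.48, SE 0.09, adjusted p = 0.000564). Mmp2, a gelatinase gene, fell from 69.4 ± 6.5 to 26.9 ± 4.8 CPM on the I3C diet (log2 -1.36, SE 0.12, adjusted p = 8.89e-08) and from 66.1 ± 2.8 to 46.2 ± 7.7 CPM on the AhR-poor diet (log2 -0.52, SE 0.12, adjusted p = 0.00238). Mmp9, another gelatinase gene, rose on both diets, by 2.62 on the I3C diet (SE 0.46, adjusted p = 0.000421) and 1.78 on the AhR-poor diet (SE 0.42, adjusted p = 0.00454). Itgb3 and Fbn1 rose on the AhR-poor diet (1.68 and 2.02), while on the I3C diet they were at -0.75 and -0.25 (adjusted p = 0.116 and 0.859). The papain responses of Ltbp4, Mmp2 and Itgb3 differed between diets by the looser rule (adjusted p = 0.0128, 0.0399 and 0.0336).

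Among 11 other receptors and co-receptors, the stricter calls were of Eng and Acvrl1, receptors best known from endothelium. Eng was higher on the AhR-poor diet with vehicle (log2 3.01, adjusted p = 0.000534) and after papain (5.18, adjusted p = 6.26e-07), and rose with papain on that diet (1.91). On the I3C diet Eng was at 0.32 CPM with vehicle and 0.27 CPM after papain, so the sizes of its diet differences rest on few counts. Acvrl1 rose with papain on the AhR-poor diet (1.08, adjusted p = 3.29e-05). The 9 endothelial markers summed to 1.19 to 3.62 CPM in the I3C libraries and 14.9 to 62.6 CPM in the AhR-poor libraries. None of the 11 was called on the I3C diet by the stricter rule, and by the looser one 3 rose and 4 fell.

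No gene among 15 SMAD mediators and regulators passed the stricter rule in any of the 5 comparisons. By the looser rule 2 rose and 4 fell with papain on the AhR-poor diet, and 1 rose and 3 fell on the I3C diet. Smad3, which carries the signal to the nucleus, rose by 0.64 and 0.76 on the log2 scale (adjusted p = 0.00522 and 0.00111), AhR-poor diet first. Smad4, its shared partner, changed by -0.24 and -0.28 (adjusted p = 0.00434 and 0.00112). Smad9, which carries bone morphogenetic protein signals, changed by -1.17 on the I3C diet (SE 0.41, adjusted p = 0.032). Median log2 fold changes of the list were between -0.15 and 0.04.

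Of 8 genes that TGF-β induces in many cell types, 1 passed the stricter rule. Ccn2, a matricellular protein gene, fell on the I3C diet after papain from 12.8 ± 3.3 to 3.93 ± 1.73 CPM (log2 -1.70, SE 0.32, adjusted p = 0.000658) and was 18.5 ± 5.9 and 24.1 ± 6.6 CPM on the AhR-poor diet. After papain the diets differed by 2.61 (SE 0.32, adjusted p = 5.01e-05). With papain on the AhR-poor diet all 8 log2 fold changes were above 0 (median 0.33), of which 2 passed the looser rule, Pmepa1 (0.73) and Tgfbi (0.50). Pmepa1 is also in the SMAD list and is counted there as well. On the I3C diet 4 of 8 were above 0 (median 0.12).

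Of 9 other ligands of the superfamily and their antagonists, both activin subunit genes rose with papain. Inhba rose from 0.141 ± 0.080 to 2.35 ± 1.73 CPM on the I3C diet (log2 4.03, adjusted p = 6.97e-06) and from 0.105 ± 0.036 to 2.22 ± 0.86 CPM on the AhR-poor diet (4.37, adjusted p = 6.94e-06). Its vehicle levels were near that of 3 counts in a library (0.057 to 0.130 CPM), so the sizes of these changes rest on few counts. Inhbb rose from 11.9 ± 1.4 to 27.2 ± 1.8 CPM (1.19, adjusted p = 7.59e-08) and from 13.8 ± 1.3 to 29.4 ± 3.7 CPM (1.09, adjusted p = 4.14e-07). In I3C mice Bmp2, a bone morphogenetic protein gene, and Nog, which encodes its antagonist noggin, fell by 1.39 and 1.22 on the log2 scale (adjusted p = 2.79e-05 and 0.000273). No gene of the list was called between diets by the stricter rule.

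**Figure D5:**
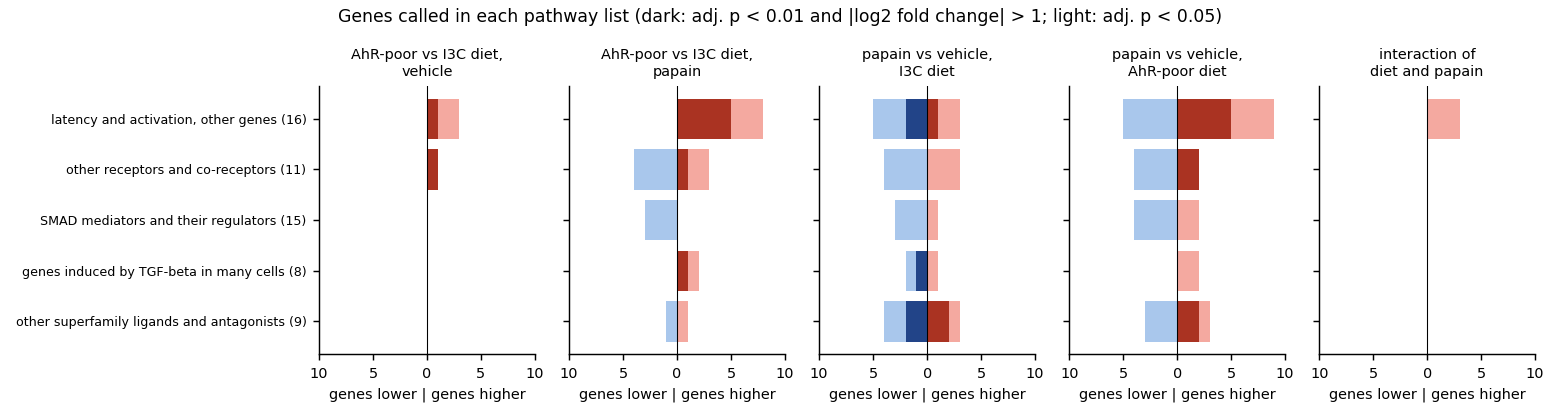
Number of genes called in each pathway list (number tested in brackets) for the 5 comparisons; bars to the right count genes that were higher in the first-named condition, bars to the left lower, red higher and blue lower, dark shades the stricter rule and light shades the looser. The latency list reached 5 stricter calls in the diet comparison after papain and again in the papain comparison of AhR-poor mice, and the SMAD list had no stricter call.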

How the data were processed

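Gene counts in 16 stranded mRNA libraries were taken as deposited. Per the labels and the methods of the study, the authors checked reads with FastQC, aligned them to mm10 with STAR and used DESeq2. The deposited values were whole-number read counts per gene, not normalized, and the counting tool, its strand setting and the annotation are not given in the sources used here. Libraries were grouped by labelled diet and injection. Per the study's methods the 4 libraries of a group are biological replicates, mice on one diet shared a cage, and sequencing used 3 units that no label ties to libraries, so neither cage nor unit could be fitted.

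The 22155 genes with at least 10 counts were fitted in R 4.3.3 with edgeR 4.0.16 (TMM factors, 4 group means, robust quasi-likelihood F test, Benjamini-Hochberg adjustment over all genes tested), and standard errors were derived from the F statistic. Exact permutation tests were two-sided, on log2 CPM with a prior of 0.5 (scipy 1.17.1 in Python 3.11.15). DESeq2 1.42.0, other scalings and filters, fits to the 8 libraries compared, a fibroblast marker covariate and leaving out each library were the alternatives. The fits were tested on simulated data, where edgeR recovered 200 of 200 changed genes for diet with vehicle. Recovery of differences as small as those of the members between diets with vehicle was not tested. The members, pathway lists and marker lists were chosen with earlier results of these data known. All members were named, with at most 3 called genes for each pathway list and comparison, and the 5 genes most correlated with Itgb8. A few other listed genes were given after their values were seen. Of 50600 identifiers 50376 matched a symbol. Gene positions are GRCm38.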

Additional observations from a re-analysis of the deposited data

Results flagged for a closer look

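In each member and group, the library farthest from the rest was compared with the range of the 4, and 6 of 40 sets of libraries had a gap above Dixon's critical value at the 95% level. Chance alone flags about 1 in 20 such sets. Tgfb1 was at 52.2 CPM in T108 on the I3C diet with vehicle and at 26.4 CPM in T115 on the I3C diet after papain. On the AhR-poor diet after papain, Itgav was at 70.6 CPM in T104, Tgfb2 at 3.60 CPM in T105 and Lrrc32 at 19.5 CPM in T105. Tgfbr2 was at 50.1 CPM in T102 on the AhR-poor diet with vehicle. The papain response of Tgfb1 differed between diets by 0.79 on the log2 scale in the edgeR test of that difference, as described above.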

How the results depend on the processing

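Under the stricter rule the members called between diets after papain went from 1 to 0 with the fibroblast covariate and were 0 to 1 when each library was left out (0 without T115). With no minimum fold change at an adjusted p below 0.01 they were 3, and the papain counts were 3 (AhR-poor) and 7 (I3C). Under the looser rule the count between diets with vehicle was 1 with DESeq2 and with library size only, and 0 to 1 with a library left out (1 without T108, T103 or T104). After papain it was 0 with the covariate and 3 to 5 with a library left out (3 without T113, T115 or T104). In the papain comparison of the AhR-poor diet it went from 6 to 3 with the covariate (Itgav, Itgb6 and Tgfb3 lost), 4 with every gene of at least 1 count (Itgb6 and Tgfb3 lost) and 4 to 8 with a library left out (4 without T102 or T107, 8 without T108). In that of the I3C diet it was 7 to 9 with a library left out, and 8 with DESeq2, RLE factors, filterByExpr or 10 counts per library. The stricter I3C count was 2 to 3 with a library left out, and 2 when genes with 1 count were tested, with only the 8 libraries compared or with the covariate (Itgb6 lost). For the difference between papain responses the looser count was 0 with the covariate and 0 to 2 with a library left out (2 without T106). The averaged Itgb8 diet difference was 1.15 with the covariate and was no longer called. The covariate fit called 0 of 22155 genes in each diet comparison, so its diet values carry no information on stability. The cause of these shifts was not tested.

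Signs turned with the fibroblast covariate for diet with vehicle in Itgb6 (0.39), Tgfb2 (0.24), Tgfb3 (-0.48), Ltbp1 (0.23) and Tgfbr1 (0.17), and for diet after papain in Itgb6 (0.58), Tgfb2 (0.29), Ltbp1 (0.10), Lrrc32 (2.03) and Tgfbr1 (0.28). In the papain comparison of the AhR-poor diet the sign turned in Itgb8 (0.0323), and in the difference between papain responses it turned in Itgb8 (0.16), Itgb6 (0.19), Tgfb2 (0.0537), Lrrc32 (0.54) and Tgfbr1 (0.11). In the averaged diet difference it turned in Itgb6 (0.49), Tgfb2 (0.26), Tgfb3 (-0.0313), Ltbp1 (0.16) and Tgfbr1 (0.22). With library size only, the difference between papain responses of Itgb8 was 0.0084 and the diet difference of Ltbp1 with vehicle was 0.0484, and the latter was 0.0153 when each library had to hold 10 counts. Of these, the diet difference of Tgfbr1 after papain and the averaged ones of Tgfb3 and Tgfbr1 had been called, by the looser rule. The averaged values with the covariate had an SE of 0.98 for Tgfb3 and 0.38 for Tgfbr1, larger than the values, so their sign was not determined.

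With each library left out, the diet difference with vehicle ranged from -0.42 to 0.10 for Itgb6, -0.15 to 0.0481 for Tgfb1, -0.22 to 0.0621 for Tgfb2, -0.0176 to 0.47 for Tgfb3, -0.13 to 0.0835 for Ltbp1 and -0.0203 to 0.22 for Tgfbr2. That of Lrrc32 after papain ranged from -0.43 to 0.12, and the papain change of Itgb8 on the I3C diet from -0.22 to 0.0871. The difference between papain responses ranged from -0.21 to 0.10 for Itgb8, -0.32 to 0.0858 for Tgfb2 and -0.10 to 0.14 for Tgfbr2. Over all genes, edgeR called 352 and DESeq2 601 by the stricter rule for diet with vehicle, and 4 and 205 for the difference between papain responses. No paired analysis was possible because the library codes are not shared between groups.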

Other observations

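T108, a vehicle library of the I3C diet, had the highest level of its group for 9 of the 10 members and the lowest for the other, Lrrc32. T106 was the lowest of the I3C papain libraries for 6 members, and T104 the highest of the AhR-poor papain libraries for 6. Red blood cell markers summed to 0.258 to 3.05 CPM with vehicle on the I3C diet and 73.2 to 155 CPM on the AhR-poor diet, and to 0.400 to 17.2 CPM and 267 to 1254 CPM after papain. Pericyte and smooth muscle markers summed to between 64.0 and 117 CPM and platelet markers to between 14.8 and 25.7 CPM over the 16 libraries.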
